A study of Mus musculus with 6 samples.

Results

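The insulin-like growth factor (IGF) family was followed through sorted cells of the mouse cerebral cortex as 10 genes out of 23494 measured in all. The members were chosen by name: the ligands Igf1 and Igf2, the receptors Igf1r and Igf2r, and the binding proteins Igfbp2, Igfbp3, Igfbp4, Igfbp5, Igfbp6 and Igfbp7. All 10 were present in each of the 3 deposited single-cell tables. Cells came from 2 lineage tracing lines. The first was NG2-Cre-ERT2/Ai14-flx; the second, named Tbx18-CreERT2/Ai14-flx, uses the Tbx18 gene as its driver. In both, tamoxifen switches on the red reporter tdT (Ai14) in cells that use the driver. The NG2 driver is also active in oligodendrocyte precursors (OPCs) and smooth muscle, and the Tbx18 driver in smooth muscle. All 6 libraries, naive ones included, carried Cre and the reporter and were sorted for tdT+ cells that exclude DAPI. Mice were 3 to 4 months old. Each line had a naive library without injury, a physical injury library from cortex injected with saline, and an ischemic injury library from cortex injected with ET-1/L-NAME, a vasoconstrictor given with an inhibitor of nitric oxide synthase. In the injured groups tamoxifen was given 7 days before injury and cells were collected 3 days after it. Per the study, naive mice received tamoxifen too, 10 days before collection. Each of the 6 groups was 1 library of pooled animals, so differences between groups have no replicate check and no p-value is given.

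IGF ligands signal for growth, survival and metabolism mainly through Igf1r, a receptor tyrosine kinase. Igf2r carries Igf2 into the cell for breakdown, and the binding proteins hold ligands outside the cell, prolonging or blocking their access to receptors. In the brain, Igf1 is known as a product of activated microglia, and Igf2 as a product of the meninges, choroid plexus and vascular wall. Igfbp3 and Igfbp4, both secreted binding proteins, are the members that were past 2-fold between the injuries in the endothelial cells of both lines. The DNA just before their starts is therefore shown, as the 250 bases of the RefSeq promoter entries on GRCm38.p6, 5′ to 3′ on the gene's strand. Igfbp3 lies on the minus strand (promoter chr11:7213924-7214173) and Igfbp4 on the plus strand (chr11:99040994-99041243). Capitals mark the hypoxia-response core, searched as ACGTG or GCGTG on both strands, that is also as CACGT or CACGC.
Igfbp3: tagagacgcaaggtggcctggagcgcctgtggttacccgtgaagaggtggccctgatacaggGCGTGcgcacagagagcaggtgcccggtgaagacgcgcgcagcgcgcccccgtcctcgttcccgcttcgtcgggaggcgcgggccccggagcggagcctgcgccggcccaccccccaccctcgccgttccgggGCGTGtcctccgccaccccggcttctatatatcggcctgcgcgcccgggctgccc
Igfbp4: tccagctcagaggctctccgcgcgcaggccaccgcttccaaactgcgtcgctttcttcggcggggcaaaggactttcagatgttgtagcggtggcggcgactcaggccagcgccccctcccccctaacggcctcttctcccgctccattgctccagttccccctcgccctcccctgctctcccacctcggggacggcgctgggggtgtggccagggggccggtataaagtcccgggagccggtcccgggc
The Igfbp3 window held 2 matches, both GCGTG, at 188 and 55 bases before the start. The Igfbp4 window held 0 matches and had TATAAA 28 bases before the start, which the Igfbp3 window did not. Only these exact letters were searched, so the tatatat near the end of the Igfbp3 window was not counted. Of 32851 promoters of the same length, 38.6% held at least 1 core match, 16.7% held 2 or more, and 12.4% held TATAAA on either strand. Such matches are common and are given as a description of the letters.

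On GRCm38 (GENCODE M21) the genes are spread over 7 chromosomes. Igfbp2 (chr1:72824503-72852474, plus strand) and Igfbp5 (chr1:72857932-72874884, minus strand) are neighbours. Igf2 lies at chr7:142650766-142666816 (minus) and Igf1r at chr7:67952827-68233668 (plus). Igfbp3 (chr11:7206086-7213923, minus) and Igfbp4 (chr11:99041244-99054392, plus) share a chromosome, while Igf1 is at chr10:87858265-87937042 (plus). Igf2r is at chr17:12682406-12769664 (minus), Igfbp6 at chr15:102144362-102149511 (plus) and Igfbp7 at chr5:77349240-77408041 (minus).

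The libraries held 686 to 4306 cells each, with medians of 2806 to 9232 UMIs (counted RNA molecules) per cell. Counts of each member were summed over the cells of 1 deposited cluster in 1 library and divided by all UMIs of those cells, as CPM, the counts of the gene for every 1000000 counts of the group. Intervals are exact 95% Poisson or binomial intervals that cover counting error only, not differences between animals or cells. A member was called past 2-fold when the ratio of CPM was at least 2 either way, the higher group reached 20 CPM and both groups had 20 cells. The share of all genes past that line is given as the background of each comparison. Counts from 3′ ends are not scaled by length, so levels were compared between cells and not between genes. Cluster names follow the study, and the marker genes were checked. Endothelial markers summed to between 14480 and 17301 CPM in the endothelial clusters, and pericyte markers to between 36351 and 37559 CPM in NG2 pericytes. The NG2 RGP cluster (radial glial precursors) had OPC markers at 8211 CPM after physical and 4840 CPM after ischemic injury, beside 6438 and 9518 CPM of radial glia markers. In Tbx18 clusters 3 and 4, the naive cells went against the injured ones. Their pericyte markers summed to 21279 and 16100 CPM, against 8 to 133 CPM after injury, and 44.1% to 58.2% of all genes were past 2-fold there, so values of those clusters are not read between naive and injury. By cluster and injury these shares were 58.2% (cluster 3, physical), 57% (cluster 3, ischemic), 44.1% (cluster 4, physical) and 55.6% (cluster 4, ischemic).

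**Figure D1:**
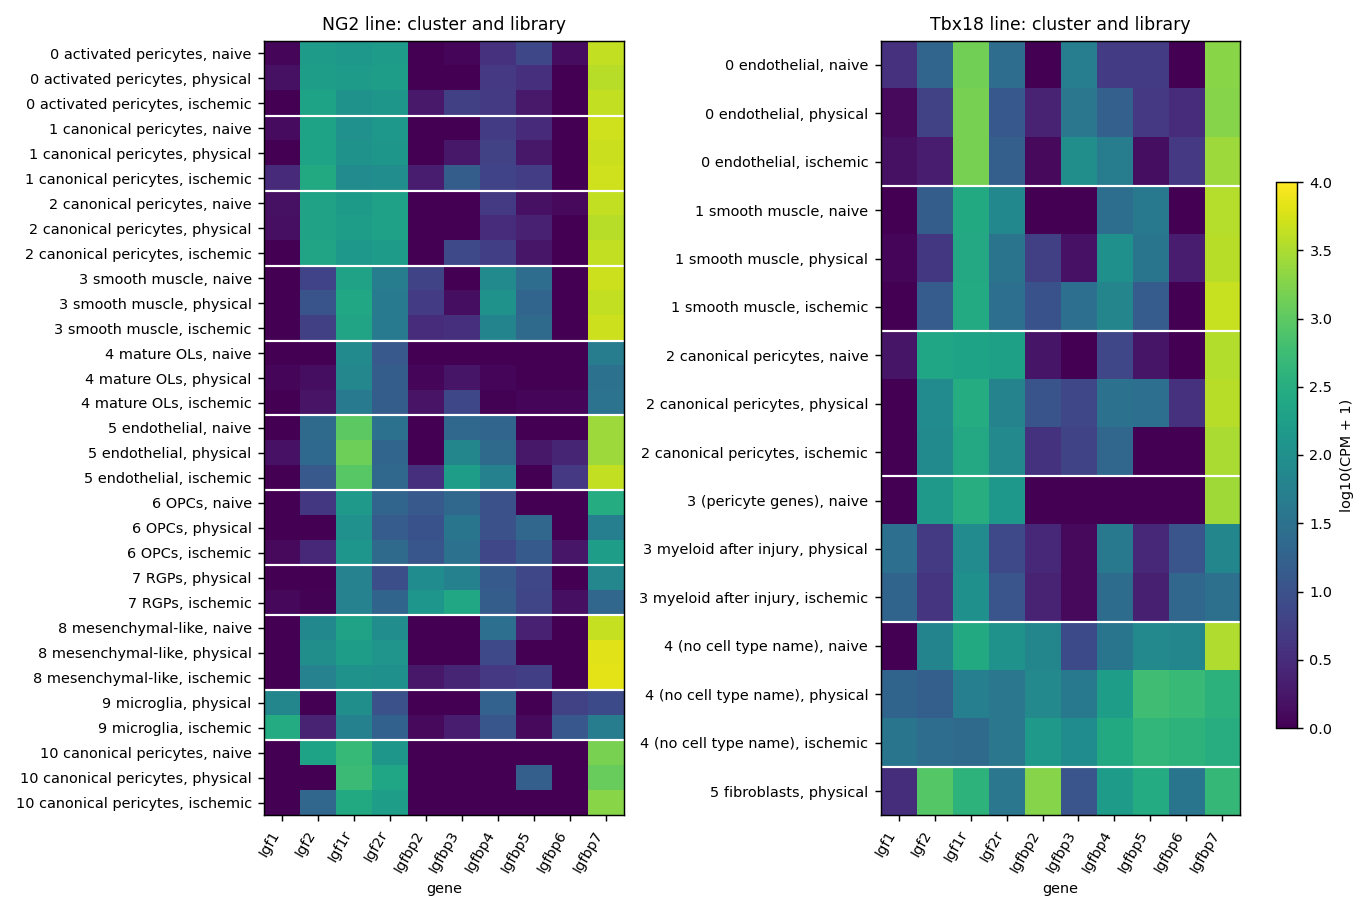
Levels of the 10 members as log10(CPM + 1), colour scale 0 to 4, with a row for each cluster and library of at least 20 cells in the NG2 line (left) and the Tbx18 line (right). Igfbp7 is high in mural and endothelial rows, Igf2 in pericyte rows and Tbx18 fibroblasts, Igf1r in endothelial rows, and Igf1 in NG2 microglia.

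Summed over the cluster, endothelial cells of both lines held more Igfbp3 and Igfbp4 after ischemic than after physical injury. The counts were concentrated in few cells, as given below. In the NG2 line (cluster 5; 101 naive, 404 physical and 453 ischemic cells), Igfbp3 stood at 20.4 CPM in naive, 67.5 CPM in physical and 174 CPM in ischemic cells. The ischemic library was the highest and the naive one the lowest, and the 3 intervals did not overlap. The ratio of ischemic to physical injury was 2.58 (2.24 to 2.98), where 1.62% of all genes were past 2-fold in that cluster. In the Tbx18 line (cluster 0; 159, 1788 and 1488 cells), Igfbp3 was 49.9 CPM in naive, 38.2 CPM in physical and 93.1 CPM in ischemic cells. There the naive and physical intervals overlapped, and the ratio of ischemic to physical injury was 2.44 (2.19 to 2.72), against a background of 0.352%.

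Igfbp4 too was highest in the ischemic library of both lines. In NG2 endothelial cells it was 18.8 CPM in naive, 22.8 CPM in physical and 57.1 CPM in ischemic libraries, a ratio of ischemic to physical injury of 2.51 (1.96 to 3.25). The naive and physical intervals overlapped, and the ischemic library stood apart. In Tbx18 endothelial cells Igfbp4 was 4.04 CPM (3 counts) in naive, 16.1 CPM in physical and 47.1 CPM in ischemic libraries, with a ratio of 2.93 (2.49 to 3.45). Of the 10 members, Igfbp3 and Igfbp4 were those past 2-fold between the injuries in each of these clusters, both higher after ischemic injury. That is 2 of 10, beside 0.733% of genes higher in NG2 and 0.22% in Tbx18 endothelial cells.

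Against naive cells, a larger share of all genes was past 2-fold than between the injuries. In NG2 endothelial cells Igfbp3 was 3.31-fold (1.90 to 6.30) higher after physical and 8.54-fold (4.96 to 16.1) higher after ischemic injury, where the background was 4.78% and 5.42%. Igfbp4 was 3.04-fold (1.71 to 5.95) higher after ischemic injury. In Tbx18 endothelial cells the ratio of ischemic to naive was 1.87 for Igfbp3, short of 2-fold, and 11.6 (3.96 to 56.5) for Igfbp4, which rests on 3 naive counts (background 8.14%). Igf2r was past 2-fold lower in the physical library of the same cluster, with a ratio of 0.463 (0.286 to 0.791; background 8.17%), and this call was lost without the cell holding most Igf2r in each group.

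**Figure D2:**
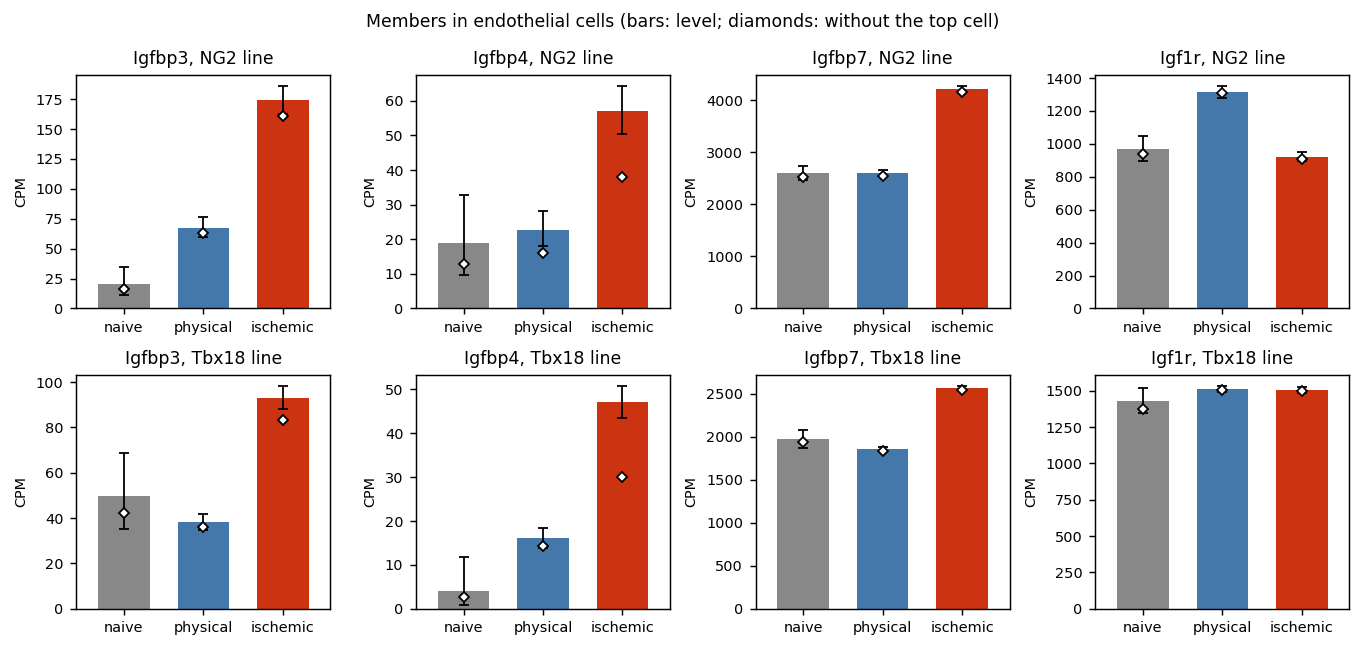
CPM of Igfbp3, Igfbp4, Igfbp7 and Igf1r (vertical axes, from 0) in endothelial cells of the naive, physical and ischemic libraries, NG2 above and Tbx18 below. Bars are levels with 95% Poisson intervals and diamonds are levels without the cell holding most UMIs of that gene; Igfbp3, Igfbp4 and Igfbp7 are highest in the ischemic library of both lines.

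The Igfbp3 and Igfbp4 counts were concentrated in few endothelial cells. Cells with at least 5 UMIs of Igfbp3 made up 0 of 101 naive, 19 of 404 physical (4.70%, 2.85 to 7.25) and 34 of 453 ischemic (7.51%, 5.25 to 10.3) NG2 endothelial cells. The 34 cells held 691 of the 825 Igfbp3 counts of that library. The Tbx18 share was 1.26% (2 cells) in naive, 1.34% (24 cells) in physical and 4.57% (68 cells) in ischemic libraries. For the NG2 line the intervals of physical and ischemic shares overlapped, while for the Tbx18 line they did not. These shares were not thinned, and median depth rose in the same order as the shares in both lines. At equal depth, the shares of cells with any Igfbp3 UMI, given below, had physical and ischemic intervals that were apart in the NG2 line and overlapped in the Tbx18 line. Cells with at least 5 UMIs of Igfbp4 were fewer: 0, 4 and 12 cells in the NG2 line and 0, 8 and 24 cells in the Tbx18 line. Cells with at least 5 UMIs of both genes numbered 3 in the NG2 and 8 in the Tbx18 ischemic library, of 12 and 24 cells rich in Igfbp4. The cells with under 5 UMIs of the gene differed less between the injuries. Their Igfbp3 was 23.2 CPM in physical and 33.0 CPM in ischemic NG2 cells, and 22.5 and 26.8 CPM in Tbx18 cells. Their Igfbp4 was 9.93 and 11.7 CPM in NG2 and 10.3 and 12.1 CPM in Tbx18 cells. This split is set by the counts of the gene itself and was not thinned.

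A single cell gave 239 of the 663 Igfbp4 counts of Tbx18 ischemic endothelial cells, and 91 of 271 in the NG2 line. Without the richest cell of each group, the ratio of ischemic to physical injury was 2.11 for Igfbp4 and 2.31 for Igfbp3 in the Tbx18 line, and 2.37 and 2.56 in the NG2 line. All 4 stayed past 2-fold. Depth differed between libraries, with medians of 5720, 7522.5 and 8622 UMIs in NG2 and 2600, 6701.5 and 8981 UMIs in Tbx18 endothelial cells. After each cell was thinned to 1000 UMIs, an Igfbp3 UMI was seen in 2.0% of naive, 2.24% (1.03 to 4.22) of physical and 6.70% (4.56 to 9.42) of ischemic NG2 cells, with unthinned shares of 9.90%, 16.8% and 24.3%. In Tbx18 cells the thinned shares were 3.65%, 3.23% (2.45 to 4.17) and 4.60% (3.59 to 5.80), unthinned 12.6%, 10.6% and 17.7%. The physical and ischemic intervals did not overlap in the NG2 line and overlapped in the Tbx18 line. Overlap of intervals does not settle whether the Tbx18 shares differ, and that difference was not tested. Igfbp4 shares of 1.0%, 1.25% and 1.79% (NG2) and 0.730%, 1.04% and 1.62% (Tbx18) overlapped in both. Thinning left out 1 to 5 cells of a library in the NG2 line and 10 to 53 in the Tbx18 line. In NG2 pericytes, taken as a type low in Igfbp3, the thinned Igfbp3 share was 0.0312% in naive, 0% in physical and 0.777% in ischemic cells (median depths 3821, 4683.5 and 4202 UMIs).

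**Figure D3:**
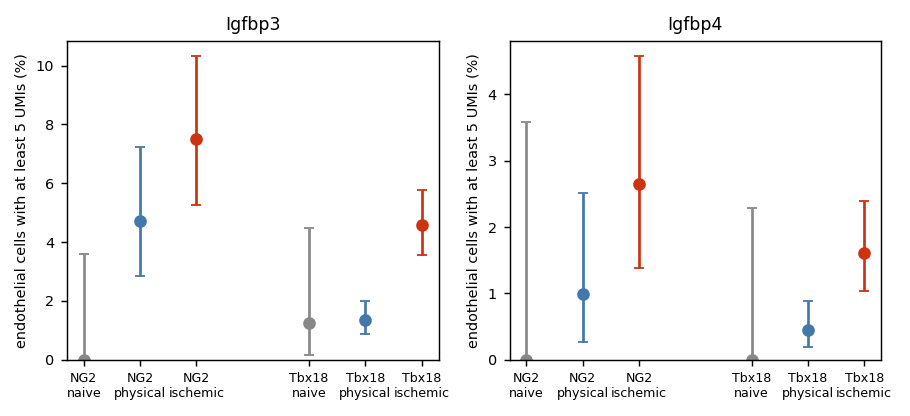
Percent of endothelial cells with at least 5 UMIs of Igfbp3 or Igfbp4 (vertical axis, from 0) by library and line, with 95% Clopper-Pearson intervals that cover counting error only. The Igfbp3 share is highest in the ischemic library of each line, at 7.51% (NG2) and 4.57% (Tbx18). Shares are not thinned, and median depth is also highest in the ischemic libraries.

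Cells rich in Igfbp3 also carried more RNA of Gkn3, an arterial endothelial gene. Gkn3 was 1647 CPM in the NG2 physical cells with at least 5 Igfbp3 UMIs and 229 CPM in those with fewer, and 270 against 145 CPM in ischemic cells. Tbx18 cells had Gkn3 at 1592 against 190 CPM after physical and 1041 against 228 CPM after ischemic injury. In the Tbx18 physical library, 238 of the 415 Gkn3 counts of the rich cells came from 2 cells also rich in Igfbp4. Those 2 cells held 238 of the 359 Gkn3 counts of the cells rich in Igfbp4 there. Slc38a5, a venous gene, was lower in the rich cells in all 4 libraries, at 34.6 against 118 CPM and 80.6 against 119 CPM (NG2), and 3.84 against 168 CPM and 63.5 against 157 CPM (Tbx18). Vwf, known from veins and large vessels, was 246 against 285 CPM and 822 against 417 CPM (NG2), and 518 against 304 CPM and 639 against 528 CPM (Tbx18), so it was higher in the rich cells of 3 of the 4 libraries. Apln, a tip-cell gene, was higher in the rich cells, at 451 against 71.7 CPM in NG2 and 137 against 23.3 CPM in Tbx18 ischemic libraries. In the NG2 line, 138 of the 308 Apln counts of the rich cells came from the 3 cells also rich in Igfbp4. In the few cells with at least 5 Igfbp4 UMIs, Gkn3 and Vwf were higher in all 4 libraries, and Slc38a5 was mixed. Slc38a5 was 89.4 against 112 CPM after physical and 159 against 110 CPM after ischemic injury in NG2 cells. In Tbx18 cells it was 286 against 164 CPM and 127 against 152 CPM. The genes compared here were chosen after their values were seen. Cells rich in Igfbp3 were deeper, with median UMIs of 15548 and 16080 in the NG2 physical and ischemic libraries and 9503 and 12414 in the Tbx18 ones.

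No other member was past 2-fold between the injuries in endothelial cells, by a rule that needs 20 CPM in the higher group. Igfbp7, a secreted relative of the binding proteins that is abundant in vessel walls, was 2601, 2604 and 4223 CPM in NG2 naive, physical and ischemic cells and 1973, 1855 and 2562 CPM in Tbx18 cells. Its ratio of ischemic to physical injury was 1.62 (1.58 to 1.66) and 1.38 (1.36 to 1.40), above 1 in both lines and under 2-fold. Igf1r was higher in endothelial cells than in any other cluster of either line, at 970, 1316 and 921 CPM in NG2 and 1429, 1511 and 1504 CPM in Tbx18 cells. Its ratio of ischemic to physical injury was 0.700 (0.672 to 0.729) in NG2 and 0.995 (0.976 to 1.02) in Tbx18 cells, the first below 1 and the second with an interval that holds 1. Igf2 was 23.5, 22.5 and 12.2 CPM in NG2 and 18.9, 5.04 and 1.06 CPM in Tbx18 cells. Its Tbx18 levels lay under 20 CPM, with a ratio of ischemic to physical injury of 0.211 (0.112 to 0.376) that was further from 1 than those of Igfbp3 and Igfbp4. Pericyte markers in those clusters were highest in the naive libraries too, at 5474, 3726 and 3312 CPM in NG2 and 3915, 359 and 105 CPM in Tbx18 cells. Their part in the Igf2 and Igf2r levels was not tested. Erythroid markers were 605, 7281 and 8843 CPM in NG2 and 22, 3457 and 3462 CPM in Tbx18 endothelial cells, and their part in the Igfbp3 and Igfbp4 values was not tested. Igf1, Igfbp2, Igfbp5 and Igfbp6 were at most 4.04 CPM in any endothelial library, and at those levels the Tbx18 ratios of ischemic to physical injury were 0.194 for Igfbp2 (4 and 18 counts) and 0.119 for Igfbp5 (6 and 44 counts).

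Among 33 or 34 other genes of the IGF axis found in the Tbx18 and NG2 tables (ligand release, insulin receptors, receptor adaptors and kinases, related binding proteins, Igf2 mRNA binding and H19), none was past 2-fold between the injuries in endothelial cells of either line. Of these, 19 in the NG2 and 17 in the Tbx18 cluster reached 20 CPM. Against naive NG2 cells, Adamts9, a secreted protease, was 2.10-fold and 3.19-fold higher after physical and ischemic injury, and Foxo3, a transcription factor held back by IGF signaling, was 2.19-fold higher after physical injury. Kazald1, a relative of the binding proteins, was lower in both. In Tbx18 cells Irs2, an adaptor of the receptor, and Ccn3 were past 2-fold lower after both injuries. Ccn3 was at 159 CPM in naive, 11.7 CPM in physical and 15.7 CPM in ischemic cells. In the same order smooth muscle markers in this cluster were 1069, 80.8 and 13.6 CPM and pericyte markers 3915, 359 and 105 CPM. Their part in the Irs2 and Ccn3 values was not tested.

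In pericytes, Igf2 was the ligand found. In the NG2 line (clusters 0, 1 and 2 pooled; 3243, 1106 and 1085 cells) it was 184 CPM in naive, 191 CPM in physical and 223 CPM in ischemic cells. The naive and physical intervals overlapped, and the ischemic level was 1.17-fold (1.07 to 1.28) that of physical injury. Clusters 0, 1 and 2 each had their highest Igf2 in the ischemic library, at 211, 264 and 217 CPM. Igf1 was at 0.31 to 0.43 CPM in these cells. Igf2r was 163, 172 and 131 CPM, lowest in the ischemic library, and Igf1r was 133, 148 and 114 CPM in the same order. Igfbp7 was 4551 CPM in naive, 3929 CPM in physical and 4460 CPM in ischemic cells. None of the 10 members was past 2-fold in any of the 3 comparisons, where 0.469%, 0.597% and 0.936% of all genes were. Of the other axis genes, Irs2 was the one past 2-fold, at 32.3 CPM in ischemic and 15.9 CPM in physical cells.

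Igfbp3 was almost absent from NG2 pericytes, with 1 count in naive, 1 in physical and 33 in ischemic cells (7.11 CPM). Radial glia markers there were 293, 303 and 545 CPM in that order, and their part in this value was not tested. The mesenchymal-like pericytes (cluster 8) had the highest Igfbp7 of the line after injury, at 4407 CPM in naive, 6657 CPM in physical and 6776 CPM in ischemic cells. Their Igfbp4 was lower after both injuries, with 21, 5 and 9 counts, or 28.4, 6.58 and 3.65 CPM (backgrounds 13.5% and 17.3%). In the small cluster 10 of 23 to 44 cells, Igf2 was 205 CPM in naive cells on 22 counts, 0 in physical and 20.05 CPM on 2 counts in ischemic cells (backgrounds 24.6% and 23.4%).

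Tbx18 pericytes (cluster 2; 226, 433 and 86 cells) had Igf2 at 231 CPM in naive, 83.5 CPM in physical and 82.3 CPM in ischemic cells. Both injured libraries lay below the naive one, with ratios of 0.362 (0.292 to 0.446) and 0.357 (0.235 to 0.522), and did not differ from each other beyond counting error (0.985, 0.634 to 1.49). The background there was 11.9% and 16.4% of genes. Igf2r was lower after both injuries as well, at 187, 61.3 and 76.6 CPM. The cells differed more broadly. Pericyte markers were 31057 CPM in naive, 20052 CPM in physical and 19249 CPM in ischemic cells, smooth muscle markers were 298, 3648 and 1288 CPM, and endothelial markers were 437, 1039 and 1422 CPM. The part of these markers in the values of Igf2, Igf2r and the other members in this cluster was not tested. Igf1r was 210, 296 and 258 CPM and Igfbp7 3469, 3708 and 3105 CPM, both under 2-fold. Igfbp4 was 6.05, 31.7 and 19.9 CPM (physical over naive 5.23, 2.53 to 12.1). Igfbp5, a binding protein that also attaches to matrix, was 27.6 CPM in physical cells, where 30 of its 41 counts came from 1 cell, against 1 count in naive and 0 in ischemic cells (background between the injuries 9.12%). Adamts1, Adamts9, Ccn1 and Irs2 of the other axis genes were past 2-fold higher after both injuries, and Ccn2 after physical injury.

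**Figure D4:**
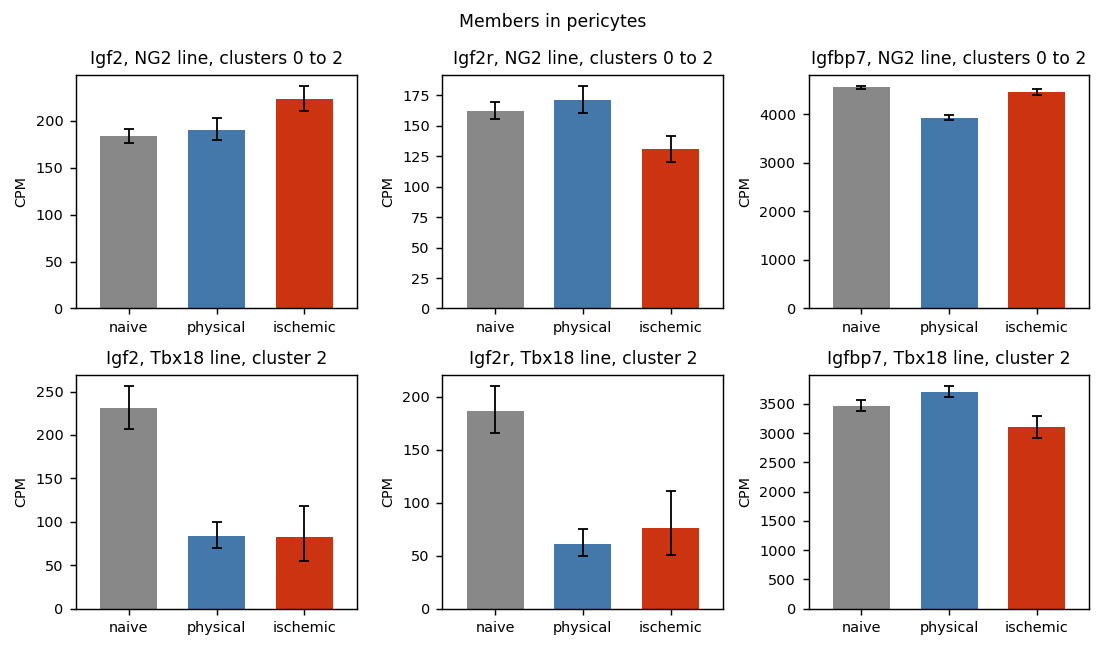
CPM of Igf2, Igf2r and Igfbp7 (vertical axes, from 0) in NG2 pericytes (clusters 0 to 2, above) and Tbx18 pericytes (cluster 2, below) by library, with 95% Poisson intervals. Igf2 and Igf2r are lower in the injured Tbx18 libraries than in the naive one, while in NG2 pericytes Igf2 is highest and Igf2r lowest in the ischemic library.

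The members found in smooth muscle cells included Igf1r, Igfbp4, Igfbp5 and Igfbp7. Igf1r was 201, 252 and 219 CPM in naive, physical and ischemic NG2 cells and 265, 260 and 279 CPM in Tbx18 cells. In the NG2 line (cluster 3; 503, 242 and 277 cells) Igfbp4 was 78.4 CPM in naive, 111 CPM in physical and 63.1 CPM in ischemic cells, the last being 0.570 of the second. No member was past 2-fold there, with backgrounds of 0.666%, 0.712% and 0.884%. Igfbp5 was 25.7, 18.9 and 22.9 CPM and Igfbp7 4924, 4275 and 4894 CPM. In the Tbx18 line (cluster 1; 63, 827 and 47 cells) Igfbp4 was 26.5 CPM in naive, 101 CPM in physical and 64.1 CPM in ischemic cells, with ratios to naive of 3.80 (2.21 to 7.17) and 2.42 (1.05 to 5.58). Igf2r was 73.5, 34.1 and 27.5 CPM. The background against naive was 12.6% and 22.9%. In the same order pericyte markers were 8208, 2755 and 8456 CPM, endothelial markers 71.4, 187 and 1081 CPM and smooth muscle markers 19264, 30388 and 25181 CPM, and their part in the values of this cluster was not tested. Between the injuries (background 16.4%) Igfbp3 was past 2-fold higher and Igfbp5 lower in the 47 ischemic cells, on 6 Igfbp3 counts that all came from 1 cell and on 3 Igfbp5 counts. Both genes were also past 2-fold against naive cells, which had 0 Igfbp3 and 20 Igfbp5 counts. The Igfbp5 ratios were 0.389 (0.0797 to 1.15) against physical and 0.337 (0.064 to 1.13) against naive cells, with intervals that hold 1. The Igf2r call between physical and naive cells was lost without the richest cells.

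Igf1, the ligand of activated microglia, was found in NG2 microglia (cluster 9). The physical library had 39 counts in 5 of 36 cells, or 67.8 CPM, and the ischemic library 1025 counts in 58 of 164 cells, or 285 CPM. The naive library had 1 count in 18 cells and was not compared. The ratio of ischemic to physical injury was 4.20 (3.05 to 5.94; background 9.83%), and 9.95 without the richest cell of each group, which held 26 of the 39 and 176 of the 1025 counts. Microglia markers were 12669 CPM in physical and 12477 CPM in ischemic cells, while border macrophage or monocyte markers were 397 and 1012 CPM and cycling markers 358 and 581 CPM, and the part of these in the Igf1 values was not tested. Thinned to 1000 UMIs, 2.86% (0.0723 to 14.9) of physical and 12.99% (8.12 to 19.3) of ischemic cells had an Igf1 UMI, with unthinned shares of 13.9% and 35.4%, and the thinned intervals overlapped. NG2 pericytes had 0.0921% and 0%. Igfbp7 was past 2-fold as well, at 6.96 and 49.2 CPM on 4 and 177 counts, while pericyte markers were 36.5 and 245 CPM, whose part in this was not tested. In the Tbx18 line Igf1 was 28.1 and 18.4 CPM in the injured cells of cluster 3 and 18.7 and 34.6 CPM in those of cluster 4. Igfbp7 was past 2-fold lower after ischemic than physical injury in cluster 3, at 29.0 against 68.5 CPM (0.424, 0.339 to 0.527; background 1.78%). Pericyte markers there were 8.47 CPM in ischemic against 61.5 CPM in physical cells, and smooth muscle markers 6.78 against 304 CPM. The part of these markers in the Igfbp7 values was not tested. The cluster, named microglia in the study, had border macrophage or monocyte markers at 8572 and 7531 CPM, beside microglia markers at 3314 and 2674 CPM.

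The NG2 RGP cluster (cluster 7) held the highest Igfbp2 of the line, and after ischemic injury the highest Igfbp3. Igfbp3 was 56.7 CPM (55 counts, 21 of 76 cells) after physical and 251 CPM (3798 counts, 327 of 438 cells) after ischemic injury. The ratio was 4.42 (3.39 to 5.88; background 6.29%), and 4.88 without the richest cells. OPC markers were 8211 CPM in physical and 4840 CPM in ischemic cells, radial glia markers 6438 and 9518 CPM, and neutrophil markers 373 and 0.198 CPM. The part of these markers in the Igfbp3 values was not tested. Thinned to 1000 UMIs, 1.92% (0.0487 to 10.3) and 15.2% (11.9 to 19.05) of cells had an Igfbp3 UMI, intervals that did not overlap. The unthinned shares were 27.6% and 74.7%, median depth was 12792 and 37572 UMIs per cell, and thinning left out 24 cells in each. Igfbp2, a binding protein known from developing neural tissue, was 88.7 CPM in physical and 127 CPM in ischemic cells, a ratio of 1.43 (1.15 to 1.80). Igfbp7 went the other way (70.1 and 20.1 CPM), but 50 of the 68 physical counts came from 1 cell, and without the richest cells the ratio was 0.903. Naive RGPs numbered 17 and were not compared.

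In OPCs (cluster 6) Igfbp3 was 21.1 CPM in naive, 35.4 CPM in physical and 31.4 CPM in ischemic cells, under 2-fold. Igfbp7 was 302, 52.6 and 170 CPM, past 2-fold lower after physical than in naive cells and higher in ischemic than physical cells (backgrounds 5.29% and 2.15%). Pericyte markers there were 1860, 249 and 301 CPM, and 1 ischemic cell held 353 of 672 Igfbp7 counts, without which, and without the richest physical cell, the ratio fell to 1.76. In oligodendrocytes (cluster 4) Igf1r was 82.5, 69.4 and 43.5 CPM and no member was past 2-fold (backgrounds 2.15%, 6.34% and 2.37%). H19, an imprinted neighbour of Igf2, was 7.93 CPM in physical and 48.1 CPM in ischemic OPCs (background 2.15%). The part of single cells in these H19 values was not tested.

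Tbx18 fibroblasts (cluster 5) numbered 116 in the physical library, and 5 and 10 in the naive and ischemic ones, which were not compared. The physical cells held Igf2 at 891 CPM and Igfbp2 at 1867 CPM. Igfbp2 was seen in 107 of 116 cells with 1619 counts. Igfbp5 was 288 CPM, Igfbp4 163 CPM and Igf1r 382 CPM there. For Igf2 and Igfbp2, this was the highest level of any group of at least 20 cells in the Tbx18 table.

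The injured cells of Tbx18 cluster 4, called vascular-genic pericytes in the study, had pericyte markers at 133 and 26 CPM, fibroblast markers at 1549 and 3554 CPM and smooth muscle markers at 4423 and 5497 CPM. No cell type name is used for them here. Among groups of at least 20 cells they had the highest Igfbp4, Igfbp5 and Igfbp6 of the Tbx18 table. Igfbp5 was 584 CPM in physical and 446 CPM in ischemic cells, and 344 CPM in the latter without 1 cell that gave 138 of 581 counts. Igfbp6, which prefers Igf2 as its ligand, was 511 and 380 CPM, and Igfbp4 was 167 and 266 CPM. The naive cells of the cluster, with pericyte markers at 16100 CPM, had 75.5, 68.7 and 34.3 CPM of Igfbp5, Igfbp6 and Igfbp4. Igf1r was 52.7 CPM in physical and 23.0 CPM in ischemic cells with a ratio of 0.437 (0.285 to 0.651), and Igfbp3 40.6 and 86.0 CPM (2.12, 1.61 to 2.78, and 1.92 without the richest cells). The background was 11.5%, with 10.3% of genes lower and 1.2% higher in ischemic than physical cells. Choroid plexus markers were 477 CPM in physical and 3.84 CPM in ischemic cells, and border macrophage or monocyte markers 675 and 1058 CPM. The part of these markers in the Igf1r and Igfbp3 values was not tested.
Cells of cluster 4 with at least 3 fibroblast markers had more Igfbp2, Igfbp5 and Igfbp6 than the others in both injured libraries. Igfbp5 was 758 against 380 CPM in physical and 595 against 180 CPM in ischemic cells, and Igfbp2 was 106 against 41.5 CPM and 199.97 against 32.1 CPM. Igfbp6 was 676 against 317 CPM and 439 against 274 CPM. Igfbp4 was 153 against 184 CPM in physical cells, with overlapping intervals, and 327 against 156 CPM in ischemic ones. Igfbp7 was lower in the physical cells with fibroblast markers, at 331 against 411 CPM, and 311 against 317 CPM in ischemic cells. For Igfbp3 the intervals overlapped in both libraries, at 41.3 against 39.9 CPM and 86.2 against 85.7 CPM. The cells with fibroblast markers were deeper, with medians of 8590 against 4608.5 UMIs and 11004 against 4833.5 UMIs. This split uses fibroblast genes, not members, and the cells share a library.

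**Figure D5:**
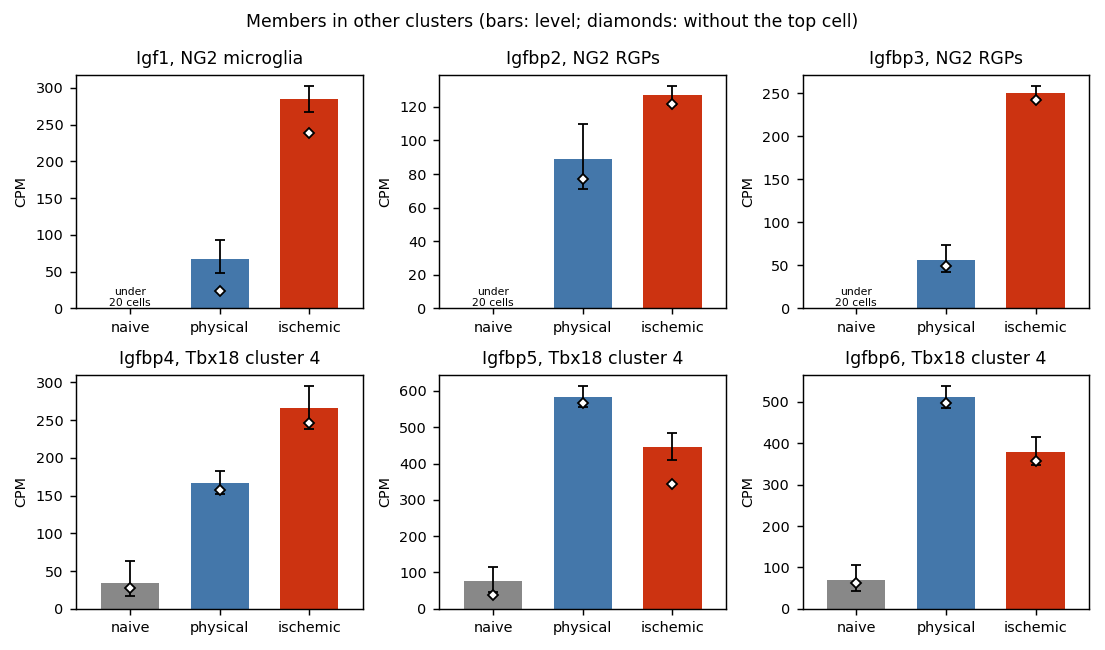
CPM (vertical axes, from 0) of Igf1 in NG2 microglia, Igfbp2 and Igfbp3 in NG2 RGPs, and Igfbp4, Igfbp5 and Igfbp6 in Tbx18 cluster 4, by library. Bars are levels with 95% Poisson intervals, diamonds are levels without the cell holding most UMIs of that gene, and groups of under 20 cells are left blank; Igf1 and Igfbp3 are highest after ischemic injury.

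Between the naive libraries of the 2 lines, in the joint naive table, members passed 2-fold 17 times over the clusters, but 8 of these were in cluster 6, where the NG2 cells carried microglia markers (11236 CPM) and the Tbx18 cells pericyte markers (15781 CPM), and 50.2% of all genes passed. In pericyte-like cluster 1, Igf2 was 513 CPM in Tbx18 and 192 CPM in NG2 cells, 2.67-fold (2.06 to 3.43; background 20.4%), and 2.30-fold without the richest cells. In pericyte-like cluster 3 it was 316 and 147 CPM, 2.15-fold (background 23%), and 1.59-fold without them, while Igf2r was 73.4 and 148 CPM on 10 and 273 counts. Clusters 1 and 3 held 36 and 26 Tbx18 cells. The other pericyte-like clusters, 0, 2, 5 and 8, held 66, 63, 47 and 35 Tbx18 cells. No member was past 2-fold in them (backgrounds 12.9%, 12%, 18.4% and 17.8%). In endothelial-like cluster 10 (63 and 68 cells), Igf2 had 6 and 14 counts and Igf2r 3 and 18, both past 2-fold lower in Tbx18 cells (background 21.2%). Pericyte markers there were 1766 CPM in Tbx18 and 6886 CPM in NG2 cells, and their part in these values was not tested. In smooth muscle-like cluster 4, Igfbp4 was 32.0 CPM in Tbx18 and 87.5 CPM in NG2 cells, a ratio of 0.366 (0.193 to 0.635; background 9.78%). In unnamed cluster 7, Igfbp2 had 32 counts in 27 Tbx18 cells and 0 in 244 NG2 cells, at least 83.8-fold higher against a floor of 3 counts in the NG2 group (background 30%), and at least 43.6-fold without the richest cell. Fibroblast markers were 2255 CPM in the Tbx18 and 578 CPM in the NG2 cells of that cluster and pericyte markers 22907 and 35028 CPM, and their part in this was not tested. Igf1r (3.68-fold, 2.59 to 5.16) and Igfbp4 (5 counts in each line) were also past 2-fold higher in Tbx18 cells there, and the Igfbp4 call was lost without the richest cells.

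Across 27 cluster and library groups of the NG2 table, the genes with the most similar log2(CPM + 1) pattern to Igfbp3 were Lmo1 (Pearson r 0.894), Fam181b and Ankrd29. For Igf1 they were Gm46224 (0.990), Pld4 and Spint1, for Igf2 Tmem45a (0.986), Art3 and Atp13a5, and for Igf1r Cd2ap (0.933), Bmpr2 and Pgm5. For Igf2r they were Col4a3 (0.974) and Hmcn2, and for Igfbp7 A4galt (0.985), Col4a2 and Col4a1. Igfbp2 was nearest to Pcbd1 (0.914), B3gnt5 and Hmgb3, Igfbp4 to Stom (0.915), Trp53i11 and Mfhas1, and Igfbp5 to Cpxm2 (0.794) and Pnck. Igfbp6 did not reach 20 CPM in that table. Over 15 groups of the Tbx18 table, Igfbp2 was nearest to Lum (0.976), Col6a3 and Bmp7, and Igfbp3 to Vstm2b (0.931), Car14 and Tmem98. The remaining members of that table were nearest to Gpx3 (Igf1, 0.956), Dpy19l3 (Igf2, 0.961), Trim56 (Igf1r, 0.976), Chn1 (Igf2r, 0.945), Tbc1d7 (Igfbp4, 0.910), Plekha6 (Igfbp5, 0.948), Ahnak2 (Igfbp6, 0.967) and Kalrn (Igfbp7, 0.971). The groups share libraries and cell types, so r describes likeness across them only.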

How the data were processed

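Cells were sorted for tdT+/DAPI- from cortex of 2 lineage tracing lines, and 10x Genomics 3′ libraries were made, 1 per line and condition, each from pooled animals. Per the labels, reads were processed with Cell Ranger 7.0.0 on mm10 (GRCm38). The study's methods give a range of Cell Ranger versions that ends at 7.0.0, so the libraries may differ in version. The annotation used for counting is not given in the sources used here. The deposited tables hold UMI counts per gene and cell, not normalized, with the authors' cluster number (seurat_clusters), library (orig.ident) and percent of mitochondrial UMIs (percent, as the authors deposited it) for each cell. The tables are a naive one of both lines, an NG2 one and a Tbx18 one. Cluster names of the NG2 and Tbx18 tables are those the study gives its numbered clusters; names in the naive table come from markers ("-like"). The members and gene lists were chosen with earlier results of these data known.

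Counts were summed per cluster and library and scaled to CPM of all UMIs of those cells, with exact Poisson intervals, exact conditional binomial intervals for ratios and Clopper-Pearson intervals for shares (95%, counting error only). Past 2-fold needs a ratio of 2, 20 CPM in the higher group and 20 cells in both. A count of 0 was set to a floor of 3 counts per group, and ratios against it are bounds. Shares of cells were thinned to 1000 UMIs. There was 1 library per group, so no test was run. For the main results no cell was removed from the deposited tables and no doublet caller was run. Those tables hold fewer cells of each library than the study reports, and its methods describe filters on cells. Whether the deposited cells had already passed those filters was not tested. Pairs of libraries shared 0 to 5 cell barcodes. All members were described; of 38 other listed genes those past 2-fold were named, and for each member the 3 genes of highest r, of which some are not reported here. Counts were simulated with 200 genes changed 4-fold. For ischemic against physical endothelial cells, 200 of 200 were called past 2-fold in the NG2 (6959 genes) and Tbx18 lines (6750 genes). In both, 0 unchanged genes were called. For physical against naive Tbx18 pericytes (7536 genes), 200 of 200 were called, with 22 of 7336 unchanged genes called. Changed genes had pooled levels above the 20 CPM minimum, and the counts were Poisson draws without spread between cells. The simulation therefore does not cover ratios near 2-fold, genes near 20 CPM or genes held by few cells. TMM factors came from edgeR 4.0.16 in R 4.3.3, on the deposited counts; intervals were computed with scipy 1.17.1 and sums with pandas 2.3.3 in Python 3.11.15.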

Additional observations from a re-analysis of the deposited data

Results flagged for a closer look

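Each value here was picked out because the NG2 and Tbx18 lines moved in opposite directions under the same comparison. With 1 library per group, the difference between the lines was not tested.

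In pericytes, Igf2 had a ratio of ischemic to naive of 1.21 in the NG2 line and 0.357 in the Tbx18 line. Igfbp7 in pericytes had a ratio of physical to naive of 0.863 in NG2 and 1.07 in Tbx18, and of ischemic to physical of 1.14 in NG2 and 0.837 in Tbx18. In smooth muscle cells, Igfbp4 had a ratio of ischemic to naive of 0.805 in NG2 and 2.42 in Tbx18, the latter on 14 and 13 counts. In endothelial cells, Igfbp2 was at least 3.11-fold higher in the NG2 ischemic than in the physical library (12 counts against 0, with a floor of 3 counts), and had a ratio of 0.194 in the Tbx18 line (4 counts against 18).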

How the results depend on the processing

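No paired analysis was possible because each group was 1 library. The counts below are of members past 2-fold, summed over clusters. The share of all genes past 2-fold under each alternative is not given here. At the main settings that share ran from 0.352% to 58.2% by cluster and comparison. The counts therefore show how the calls depend on the rule, not whether members differ from other genes. For ischemic against physical injury in the NG2 line the count was 7, and 21 with no minimum CPM. In the Tbx18 line it was 8, and 4 with a 50 CPM minimum, 14 with none, 5 without cells holding 3 markers of another type, and 5 without clusters 3 and 4. For physical against naive the NG2 count of 4 became 7 with no minimum. The NG2 count for ischemic against naive, 4, became 14 with no minimum and 7 under the filters of the study's methods, with the mean of the CPM of each cell, or without the 5% of cells with the most UMIs. In the Tbx18 line 19 (physical against naive) became 7, and 21 (ischemic against naive) became 3, with groups of at least 300000 UMIs, and both became 7 without clusters 3 and 4. Between the naive lines 17 became 11 under the filters or a 50 CPM minimum, 6 without cells holding markers of another type and 3 with at least 300000 UMIs. In the naive table the members with the same highest cluster went from 10 to 6 without cells holding markers of another type. Of 30 similar genes in the Tbx18 table, 15 were the same with groups of at least 100 cells. The groups limited to 300000 UMIs, the removal of clusters 3 and 4 and the removal of the richest cell were chosen after seeing the data. The cause of these changes was not tested.

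Without cells holding markers of another type, Igfbp7 turned to 0.18 on the log2 scale (NG2 RGPs, ischemic against physical) and Igf2r to 0.11 (Tbx18 endothelial cells, physical against naive). Where a group at 0 was set by its floor above the other group, the alternative gave no direction and was left out. Of 80 calls of members past 2-fold, 72 were the same with TMM factors, 77 without mitochondrial and ribosomal genes and 67 with the mean of the CPM of each cell. Of those that could be repeated, 61 of 72 were the same under the filters of the study's methods. So were 66 of 78 without the deepest 5% of cells and 65 of 77 without the richest cell. Without cells holding markers of another type, 47 of 58 were the same, 9 changed without reversing and 2 reversed. The 80 calls include naive cluster 6 and naive against injured cells of Tbx18 clusters 3 and 4, whose markers differ between the groups. The agreement is therefore not that of like cells alone. Igfbp3 and Igfbp4 stayed higher in ischemic than physical endothelial cells under each alternative run, with log2 ratios of 1.01 to 1.42 and 1.08 to 1.40 in the NG2 line and 1.09 to 1.29 and 1.07 to 1.78 in the Tbx18 line, the 1.07 being without the richest cells. Sparse groups limit the precision: naive endothelial cells of the Tbx18 line held 3 Igfbp4 counts.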
